A study of Homo sapiens with 12 samples.

Results

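The folate one-carbon cycle enzymes carry folate-bound one-carbon units between serine, formate and the folate pools of the cytosol and the mitochondria. The 9 genes were taken by symbol from a table of 48162 genes and followed across 12 libraries of Caco-2 spheroids. Each symbol matched a single row. ALDH1L1, SHMT1, MTHFD1 and MTHFS encode the cytosolic enzymes, and ALDH1L2, SHMT2, MTHFD2, MTHFD2L and MTHFD1L the mitochondrial ones. All 9 had enough counts to be tested, among 16733 genes that passed the filter on low counts.

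Serine hydroxymethyltransferases (SHMT1 in the cytosol, SHMT2 in mitochondria) move a carbon from serine onto tetrahydrofolate and release glycine. The dehydrogenase and cyclohydrolase enzymes MTHFD2 and MTHFD2L oxidise that carbon in mitochondria, MTHFD1L releases it there as formate, and the trifunctional MTHFD1 takes formate up again in the cytosol for purine and thymidylate synthesis. ALDH1L1 and ALDH1L2 oxidise the formyl group of 10-formyltetrahydrofolate to carbon dioxide in cytosol and mitochondria, and MTHFS returns 5-formyltetrahydrofolate (folinate) to the active pool. Methotrexate, the drug used here, is an antifolate that depletes the reduced folates on which these enzymes act. ALDH1L1 is best known from liver and as an astrocyte marker, while MTHFD2 and SHMT2 are known for high levels in proliferating and transformed cells.

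Caco-2, a long-established line from a human colorectal adenocarcinoma, can take on traits of the absorptive cells of the small intestine. Cells of passage 26 were embedded in Matrigel, a basement membrane gel, and formed spheroids over 5 days in the presence of 20% fetal bovine serum. Exposure lasted 4 h and was to the carrier fluid (control), to methotrexate, to lactoferrin (an iron-binding protein of milk) or to methotrexate together with lactoferrin, with 3 libraries in each of the 4 groups. All groups share the line, the gel, the serum and the carrier, no genotype differs between them, and the doses are not given in the labels. The labels also do not say whether the 3 libraries of each group were grown as separate cultures. The p-values therefore reflect only the spread among these libraries, which may be technical.

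The promoters below are shown because the first 2 belong to genes that rose with methotrexate, the third to the gene that fell under the main scaling and the fourth to a gene whose level was close to that of control. Each is the stretch of up to 250 bases before an annotated start, read 5′ to 3′ on the gene's own strand and ending before the first annotated exon of the same gene. They come from RefSeq on GRCh38.p14, a different build from the hg19 coordinates of the count table. Promoters matched 7 of the 9 genes, and ALDH1L2 and SHMT2 had none. The 4 stretches lie at chr3:126181187-126181436 (minus strand, ALDH1L1, the farther of its annotated starts), chr17:18363564-18363800 (minus strand, SHMT1), chr2:74198365-74198561 (plus strand, MTHFD2) and chr6:150866083-150866332 (plus strand, MTHFD1L). Capitals mark matches, on either strand, to 5 short motifs: TGATGNAA (the element bound by ATF4 with C/EBP proteins), CACGTG (the E-box), CCAAT (the CCAAT box), GGGCGG (the GC box) and TATAAA (the TATA box).
ALDH1L1: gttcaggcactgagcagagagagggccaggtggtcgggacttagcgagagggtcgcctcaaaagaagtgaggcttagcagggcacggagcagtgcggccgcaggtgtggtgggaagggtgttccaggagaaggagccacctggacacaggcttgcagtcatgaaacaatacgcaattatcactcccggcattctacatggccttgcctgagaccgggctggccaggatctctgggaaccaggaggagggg
SHMT1: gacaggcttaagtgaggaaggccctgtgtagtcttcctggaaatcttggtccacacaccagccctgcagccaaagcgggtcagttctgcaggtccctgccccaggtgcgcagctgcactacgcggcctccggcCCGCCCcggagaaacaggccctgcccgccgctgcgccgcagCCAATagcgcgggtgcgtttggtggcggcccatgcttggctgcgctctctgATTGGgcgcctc
MTHFD2: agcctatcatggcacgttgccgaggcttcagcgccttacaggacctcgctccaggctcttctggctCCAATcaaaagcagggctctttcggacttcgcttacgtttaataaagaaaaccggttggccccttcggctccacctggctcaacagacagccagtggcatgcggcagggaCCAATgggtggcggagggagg
MTHFD1L: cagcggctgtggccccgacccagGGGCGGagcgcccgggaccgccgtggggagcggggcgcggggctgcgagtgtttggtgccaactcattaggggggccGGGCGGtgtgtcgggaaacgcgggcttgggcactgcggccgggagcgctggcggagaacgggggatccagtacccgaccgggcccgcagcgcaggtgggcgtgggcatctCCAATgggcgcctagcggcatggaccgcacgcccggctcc
The printed ALDH1L1 stretch held none of the 5 motifs. The nearer ALDH1L1 start, not printed because annotated exons of the gene cover most of its window, had 4 matches to GGGCGG and 1 to TATAAA, and unprinted starts of MTHFD1L held TGATGNAA and CACGTG. In the other 3 stretches CCAAT occurred in each, and the SHMT1 and MTHFD1L stretches also held GC boxes. Over 35116 RefSeq promoter windows of 250 bases, CCAAT was present in 32%, GGGCGG in 42.6%, TATAAA in 10.7%, CACGTG in 6.34% and TGATGNAA in 3.14%. A match of letters is not evidence of binding, and none of the libraries measured it.

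Library depth differed by group. Totals ran from 18714054 to 23859094 counts in the control, lactoferrin and combined groups, and from 47459811 to 60591667 in the methotrexate group. Levels are given as CPM, counts scaled to a common library total. A count of 0 in a library leaves room for 0.0582 to 0.152 CPM after scaling, depending on its depth (3 counts, counting error only). The share of mitochondrially encoded genes was 6.67 to 7.54% in the methotrexate libraries, against 2.00 to 3.34% in the other 9. The 9 one-carbon genes together took 0.107 to 0.113% of the counts in the methotrexate libraries and 0.0534 to 0.0623% elsewhere.

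The methotrexate libraries also went against the label of an epithelial line in their marker genes, which bears on every comparison with them. The summed level of 12 adipocyte markers was 18780.5 to 19626.6 CPM with methotrexate, against 46.4 to 50.2 in control. Lactoferrin libraries had 45.4 to 47.3 CPM of these markers and combined libraries 41.9 to 48.3. ADIPOQ, the adiponectin gene, had 5, 0 and 0 counts in control and 60681, 81674 and 80223 with methotrexate. A list of 10 fibroblast markers summed to 9943.04 to 11455.5 CPM with methotrexate and to 924 to 1087 in the other groups, where DPT was at 0. The 5 astrocyte markers summed to 106 to 119 CPM with methotrexate and 38.7 to 49.7 elsewhere. Of them 3 were called higher than in control and 0 lower, beside 35.4% and 29.1% of all tested genes. The astrocyte markers did not move together. GFAP stood at 0.764, 1.30 and 0.734 CPM with methotrexate, against 0.431, 0.241 and 0.211 in control. AQP4 stood at 0.222, 0.291 and 0.179 CPM with methotrexate, against 0.431, 0.402 and 0.338 in control. Its raw counts were 9, 15 and 9 against 9, 10 and 8. Hepatocyte markers summed to 1254 to 1387 CPM with methotrexate and 2534 to 2733 in control, with F9 at 0 throughout. The sum of the blood and immune markers overlapped between groups (44.0 to 51.8 CPM, with CD68 and HBB at 0 throughout). Of the 4 tested, 2 were higher with methotrexate than in control (PTPRC and CD14) and 2 lower (CSF1R and LYZ). The shares of all tested genes were again 35.4% and 29.1%. Under the epithelial scaling described below, 4 astrocyte, 2 blood and immune and 0 hepatocyte markers were called higher. On that scaling 0 of these 3 lists were called lower, beside 78.7% of all genes higher and 0.191% lower. PTPRC had only 11, 18 and 32 counts with methotrexate. Its 0.271, 0.349 and 0.635 CPM there overlapped the combined libraries, at 0.552, 0.340 and 0.548. The 5 endothelial markers with a row summed to 1.89 to 2.64 CPM in control and 6.73 to 7.76 with methotrexate. Lactoferrin libraries had 2.08 to 3.13 CPM of them and combined libraries 3.15 to 4.38, which also lay above control, though none of the list's tested genes was called there. The 38 epithelial markers, which include EPCAM and VIL1, summed to 5462 to 6154 CPM with methotrexate and 10929 to 12399 in the other groups. In raw counts the epithelial list gave 242415, 293188 and 293330 in control and 249624, 301091 and 275186 with methotrexate, so its share of the counts was 1.22 to 1.26% in control and 0.483 to 0.526% with methotrexate. The part of these transcripts in the results that follow was not tested. In bulk RNA, a lower share of a list can go with fewer cells of a type, less RNA per cell or more RNA of other kinds. These cannot be told apart here.

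With methotrexate alone, 4 of the 9 one-carbon genes rose (ALDH1L1, ALDH1L2, SHMT1 and MTHFD2L) and 1 fell (MTHFD2). The other 4 did not pass the test (MTHFD1, MTHFD1L, SHMT2 and MTHFS). Under an alternative scaling given below, MTHFD2, MTHFD1, MTHFD1L and SHMT2 were called higher. The 4 rises under the main scaling were far apart in size: 585-fold for ALDH1L1, 17-fold for ALDH1L2, 2.69-fold for SHMT1 and 1.64-fold for MTHFD2L. The test was edgeR's quasi-likelihood test with counts scaled by the trimmed mean of M values (TMM), and a gene was called at a Benjamini-Hochberg adjusted p under 0.05. Over all tested genes it called 64.5%, of which 35.4% rose and 29.1% fell, so that 5 of 9 (55.6%) lies close to the background. The 3 libraries of each group did not overlap for those 5 genes, which was the case for 71.5% of all genes. These background shares include genes that passed the low-count filter only with the methotrexate libraries, which can raise the share called higher. With those libraries 16733 genes were tested and without them 15143, and all 9 members were tested either way.

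**Figure D1:**
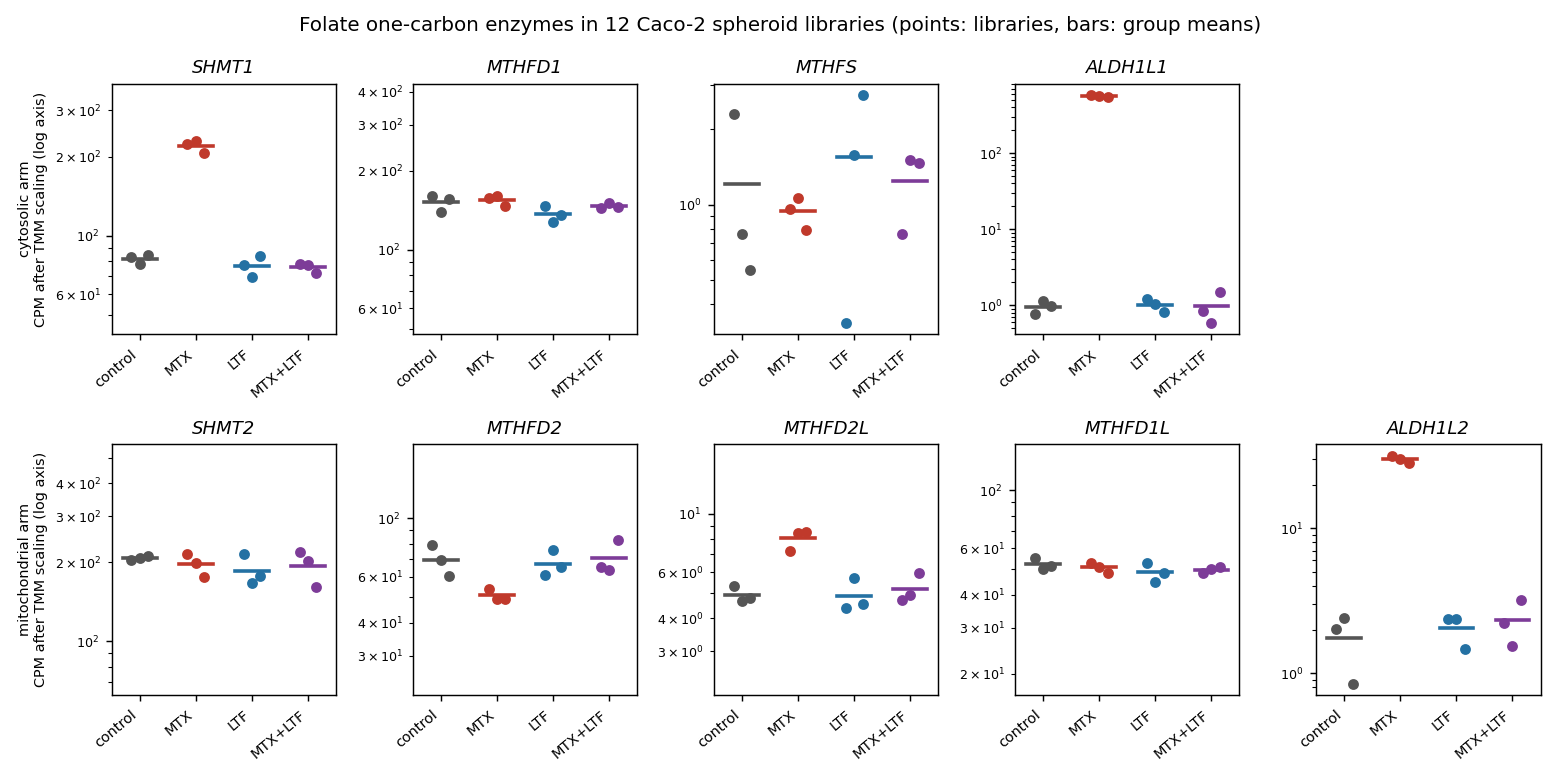
CPM after TMM scaling (log axis, range differing by panel) for each of the 9 genes in the 12 libraries, cytosolic genes in the upper row and mitochondrial genes in the lower (MTX, methotrexate; LTF, lactoferrin; points, libraries; bars, group means). The methotrexate points stand apart from the other 3 groups for ALDH1L1, ALDH1L2, SHMT1, MTHFD2L and MTHFD2, and control, lactoferrin and combined points overlap for all 9.

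Serine to glycine, the entry of the cycle, passed the test under TMM scaling in the cytosolic enzyme and not in the mitochondrial one. SHMT1 (ENSG00000176974, chromosome 17, 18231187 to 18266856 on hg19, minus strand) stood at 83.1, 78.1 and 84.2 CPM in control and at 224, 229 and 206 CPM with methotrexate. It measured 77.5, 69.8 and 83.9 CPM with lactoferrin and 78.4, 77.7 and 72.3 with both agents. All 3 methotrexate libraries lay above the other 9, which overlapped. SHMT1 rose with methotrexate by 1.43 ± 0.09 on the log2 scale (± SE, edgeR adjusted p = 1.57e-09).

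SHMT2 (ENSG00000182199, chromosome 12, 57623110 to 57628718 on hg19, plus strand) stood at 205, 207 and 211 CPM in control and at 216, 198 and 177 CPM with methotrexate. With lactoferrin it measured 214, 166 and 178 CPM, and with both agents 218, 203 and 161. The 4 groups overlapped, and the lowest and highest libraries of all 12 were both from the combined group. Its difference with methotrexate was -0.08 ± 0.12 on the log2 scale (edgeR adjusted p = 0.597), with a 95% interval of -0.34 to 0.18.

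Of the enzymes that oxidise the mitochondrial carbon, MTHFD2 fell and MTHFD2L rose with methotrexate. MTHFD2 (ENSG00000065911, chromosome 2, 74425689 to 74444692 on hg19, plus strand) had 79.5, 69.3 and 60.2 CPM in control and 54.1, 49.1 and 49.4 with methotrexate. The lactoferrin libraries had 60.6, 75.5 and 65.6 CPM and the combined ones 65.0, 63.6 and 82.6. All 3 methotrexate libraries lay below the other 9, though the gap to the lowest control library was small beside the spread within control. The fall was 0.45 on the log2 scale (-0.45 ± 0.13, edgeR adjusted p = 0.0055), and the sign turned under another scaling described below.

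MTHFD2L (ENSG00000163738, chromosome 4, 74979891 to 75168816 on hg19, plus strand), the paralog of MTHFD2, was the less abundant of the pair. It measured 5.32, 4.66 and 4.78 CPM in control and 7.20, 8.44 and 8.56 with methotrexate. With lactoferrin it measured 4.38, 5.70 and 4.52 CPM, and with both agents 4.72, 4.90 and 5.93. The methotrexate libraries lay above all others, and the rise was 0.72 ± 0.16 on the log2 scale (edgeR adjusted p = 0.000904).

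The formate-releasing and formate-activating enzymes did not pass the test under TMM scaling in either arm, though both were called higher under the other scaling below. MTHFD1L (ENSG00000120254, chromosome 6, 151186685 to 151423023 on hg19, plus strand) had 55.2, 50.2 and 51.4 CPM in control and 52.8, 51.1 and 48.5 with methotrexate. It had 53.0, 44.9 and 48.6 CPM with lactoferrin and 48.5, 50.0 and 51.2 with both agents. The groups overlapped, and the difference with methotrexate was -0.04 ± 0.09 on the log2 scale (edgeR adjusted p = 0.712), with a 95% interval of -0.24 to 0.16. MTHFD1 (ENSG00000100714, chromosome 14, 64854749 to 64926725 on hg19, plus strand) had 161, 139 and 156 CPM in control and 158, 160 and 147 with methotrexate. Lactoferrin libraries had 146, 127 and 136 CPM and combined libraries 144, 150 and 146. Control and methotrexate overlapped here too, at a difference of 0.03 ± 0.09 (edgeR adjusted p = 0.779, 95% interval -0.16 to 0.22).

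The enzymes that remove one-carbon units showed the widest differences. ALDH1L1 (ENSG00000144908, chromosome 3, 125822412 to 125916837 on hg19, minus strand) had 16, 28 and 23 counts in the control libraries and 23551, 29460 and 27490 with methotrexate. Lactoferrin libraries had 25, 21 and 16 counts, and libraries with both agents 20, 12 and 33. In CPM, control stood at 0.767, 1.13 and 0.972 and methotrexate at 581, 571 and 546. The 3 methotrexate libraries lay far above the other 9, which overlapped one another near 1 CPM. ALDH1L1 rose by 9.19 ± 0.21 on the log2 scale (edgeR adjusted p = 2.47e-15), with a 95% interval of 8.76 to 9.63.

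ALDH1L2 (ENSG00000136010, chromosome 12, 105413568 to 105478355 on hg19, minus strand), its mitochondrial counterpart, had 2.01, 2.41 and 0.845 CPM in control and 31.6, 30.1 and 28.1 with methotrexate. It had 2.36, 2.36 and 1.47 CPM with lactoferrin and 2.21, 1.55 and 3.20 with both agents. Again the methotrexate libraries lay above the other 9, and the rise was 4.09 ± 0.28 on the log2 scale (edgeR adjusted p = 2.82e-09).

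MTHFS (ENSG00000136371, chromosome 15, 80125927 to 80189721 on hg19, minus strand) had few counts and a wide spread between libraries of a group. Control libraries had 48, 19 and 13 counts, methotrexate 39, 55 and 40, lactoferrin 7, 32 and 54, and both agents 18, 31 and 32. In CPM this is 2.30, 0.764 and 0.549 for control, 0.962, 1.07 and 0.794 for methotrexate, 0.337, 1.57 and 2.74 for lactoferrin and 0.765, 1.50 and 1.46 for both. The spread within control and within lactoferrin exceeded any difference between group means. With methotrexate the difference was -0.33 ± 0.56 on the log2 scale (edgeR adjusted p = 0.623), and its 95% interval, -1.51 to 0.86, is the widest of the 9.

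**Figure D2:**
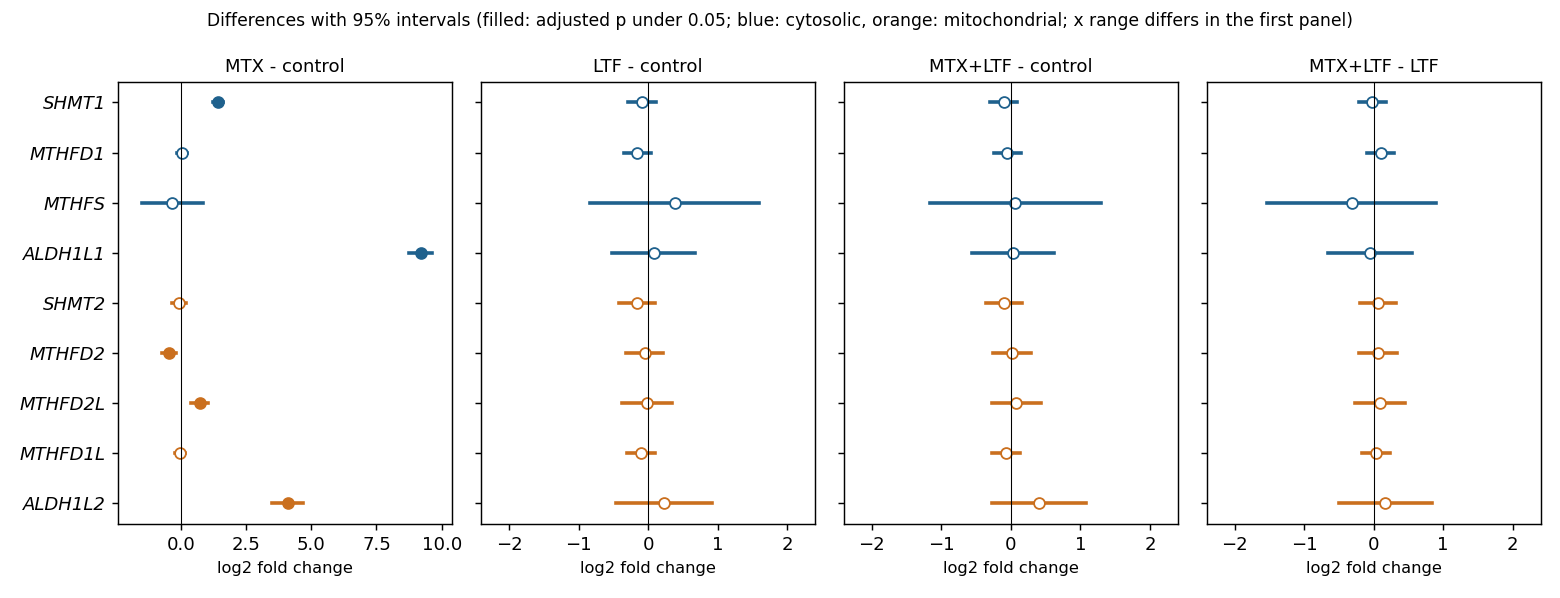
Log2 fold change with its 95% interval for the 9 genes in 4 comparisons (MTX, methotrexate; LTF, lactoferrin; filled points, adjusted p under 0.05; blue, cytosolic; orange, mitochondrial; the first panel has a wider x axis). The first panel has 5 filled points, from -0.45 for MTHFD2 to 9.19 for ALDH1L1, and the other 3 panels have none.

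The direction of the smaller differences depended on how the libraries were scaled. When the libraries were set level on the median ratio of 37 epithelial marker genes in place of TMM, the median log2 difference of all tested genes between methotrexate and control moved from 0.03 to 1.04, and that of the 9 one-carbon genes from 0.03 to 1.04. Under this epithelial scaling 8 of the 9 rose and 0 fell, beside 78.7% and 0.191% of all genes. MTHFD2, lower under TMM, was then higher by 0.56 (adjusted p = 0.00285). SHMT2 stood at 0.93, MTHFD1L at 0.97 and MTHFD1 at 1.04, each close to the median of all genes under both scalings. MTHFS was not called (0.67, adjusted p = 0.277). ALDH1L1, ALDH1L2, SHMT1 and MTHFD2L were above the median of all genes under both scalings, and MTHFD2 was below it under both. At the submitters' own cut-offs, a change over 2-fold with an adjusted p under 0.01, ALDH1L1, ALDH1L2 and SHMT1 passed and none fell, beside 21.6% of all genes higher and 5.49% lower.

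**Figure D3:**
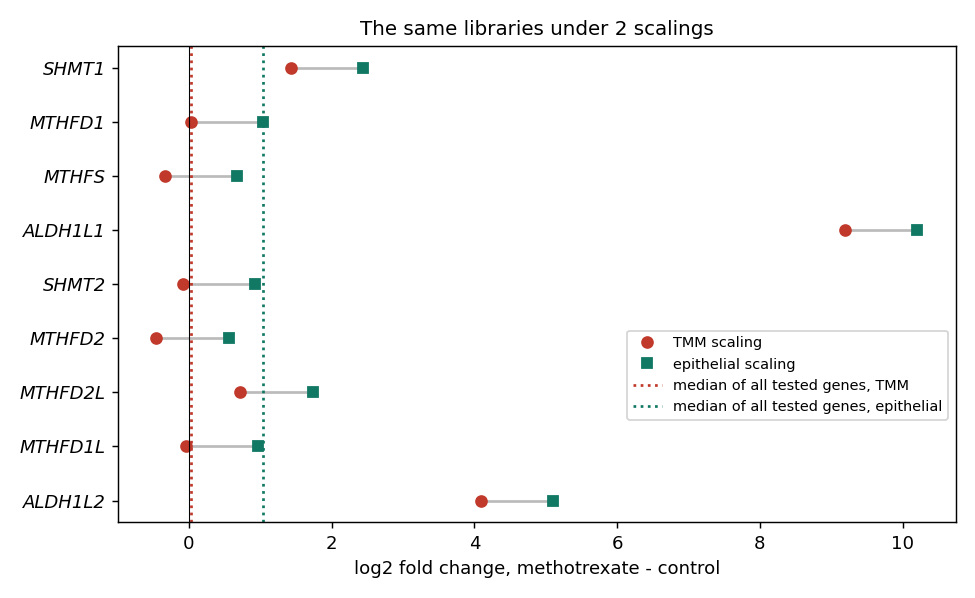
Log2 fold change of methotrexate against control for the 9 genes under TMM scaling (circles) and under scaling on epithelial genes (squares), with the median of all tested genes under each as a dotted line. The shift is alike for every gene, so MTHFD2 crosses 0 while staying left of the dotted line, and MTHFD1, MTHFD1L and SHMT2 stay near it.

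Set side by side per length (CPM per kb of the gene length in the table), the mitochondrial arm was the larger in control. SHMT2 led at 60.8 ± 0.975 CPM per kb (SD, n = 3), ahead of MTHFD1 at 44.0 ± 3.33 and SHMT1 at 29.7 ± 1.17, with no overlap of libraries between these neighbours. MTHFD2 (15.6 ± 2.16) and MTHFD1L (14.5 ± 0.714) overlapped. So did MTHFD2L (1.55 ± 0.111) and MTHFS (1.33 ± 1.05), and at the bottom ALDH1L2 (0.233 ± 0.108) and ALDH1L1 (0.207 ± 0.0391). The lactoferrin and combined groups had the same first 5 genes in the same order, with the same 2 aldehyde dehydrogenases last.

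With methotrexate the order differed. ALDH1L1 was first at 123 ± 3.93 CPM per kb, then SHMT1 at 79.7 ± 4.42, SHMT2 at 57.6 ± 5.79 and MTHFD1 at 45.0 ± 2.07. MTHFD1L (14.1 ± 0.604), MTHFD2 (11.4 ± 0.622), ALDH1L2 (3.97 ± 0.237), MTHFD2L (2.53 ± 0.236) and MTHFS (1.04 ± 0.152) followed, and no neighbours in this order overlapped. The cytosolic genes made up 43.1 to 45.6% of the summed CPM per kb of the 9 genes in control and 72.5 to 74.1% with methotrexate. The share was 43.4 to 47.2% in the lactoferrin libraries and 43.2 to 46.2% in the combined ones. Without ALDH1L1 the methotrexate share was 57.1 to 59.3%, against 43.0 to 47.2% in the other 9 libraries. Under TMM scaling the mitochondrial sum lay between 80.2 and 96.5 CPM per kb in every library, so the groups overlapped there. Under epithelial scaling they did not: the 3 methotrexate libraries had sums of 148 to 152 CPM per kb, against 67.6 to 80.3 for the other 9.

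**Figure D4:**
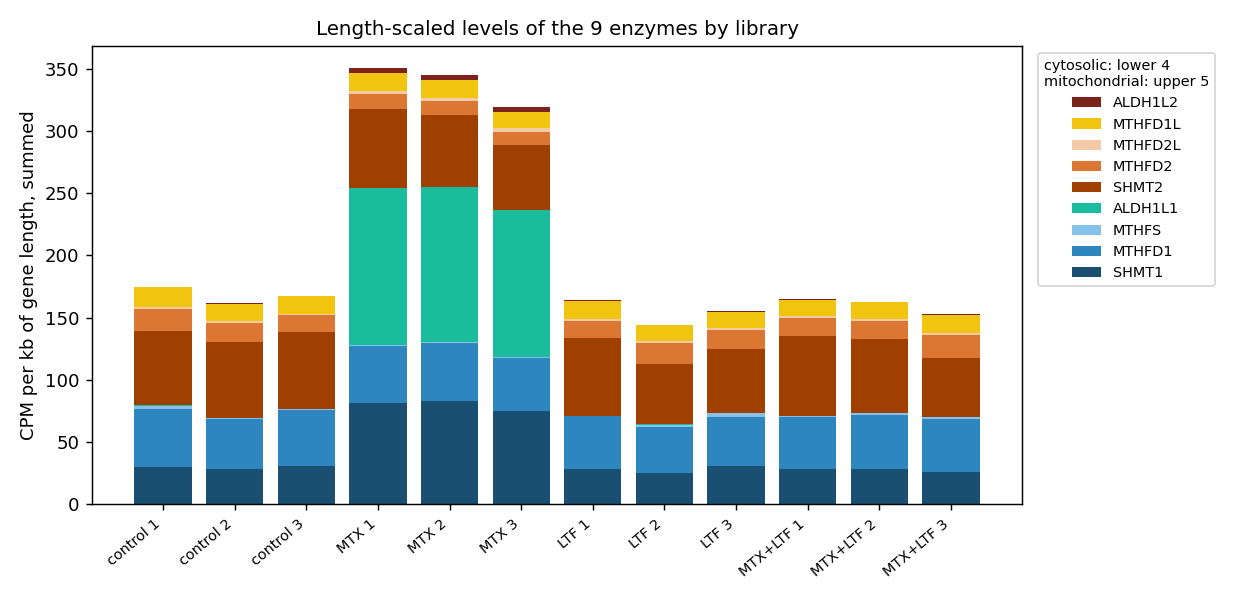
Stacked CPM per kb of gene length for the 9 genes in each library (MTX, methotrexate; LTF, lactoferrin), with the 4 cytosolic genes below and the 5 mitochondrial genes above. The 3 methotrexate bars are taller through ALDH1L1 and SHMT1, and under this TMM scaling the mitochondrial segments sum to 80.2 to 96.5 in all 12 libraries.

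A ratio of 2 genes within a library does not depend on how libraries are scaled against each other, apart from the small constant of 0.1 CPM added to both. SHMT2 exceeded SHMT1 by 2.46, 2.65 and 2.51 times in control CPM and by 2.76, 2.38 and 2.11 times with lactoferrin. With both agents it exceeded SHMT1 by 2.78, 2.61 and 2.22 times, while with methotrexate the ratio was 0.963, 0.866 and 0.857. The methotrexate libraries alone were under 1, and their mean log2 ratio was lower than control by 1.51 (-0.16 ± 0.09 against 1.34 ± 0.06, SD, n = 3, two-sided exact permutation p = 0.1). This p is the smallest that 3 libraries against 3 can give, and it became 0.278 after adjustment over 25 ratio tests.

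The ratio of ALDH1L2 to ALDH1L1 was 2.44, 2.05 and 0.882 in control and 0.0546, 0.0528 and 0.0516 with methotrexate, without overlap. MTHFD2 over MTHFD1 was lower with methotrexate (0.343, 0.307 and 0.337, against 0.494, 0.499 and 0.388 in control), and MTHFD2L over MTHFD1 was higher (0.0462, 0.0532 and 0.0589, against 0.0337, 0.0343 and 0.0313). Each of these 3 gave the smallest exact permutation p, 0.1 (two-sided, n = 3), which became 0.278 after adjustment over 25 ratio tests. MTHFD1L over MTHFD1 overlapped between methotrexate and control, at 0.335, 0.319 and 0.330 against 0.343, 0.362 and 0.331 (exact permutation p = 0.2, n = 3). So 4 of the 5 pairs of mitochondrial and cytosolic genes separated the methotrexate libraries from control, and the formate pair did not. The share over other gene pairs was not computed, and 71.5% of all single genes did not overlap in this comparison. The ratios of MTHFD2, MTHFD2L and MTHFD1L share MTHFD1, so they are not independent of each other.

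**Figure D5:**
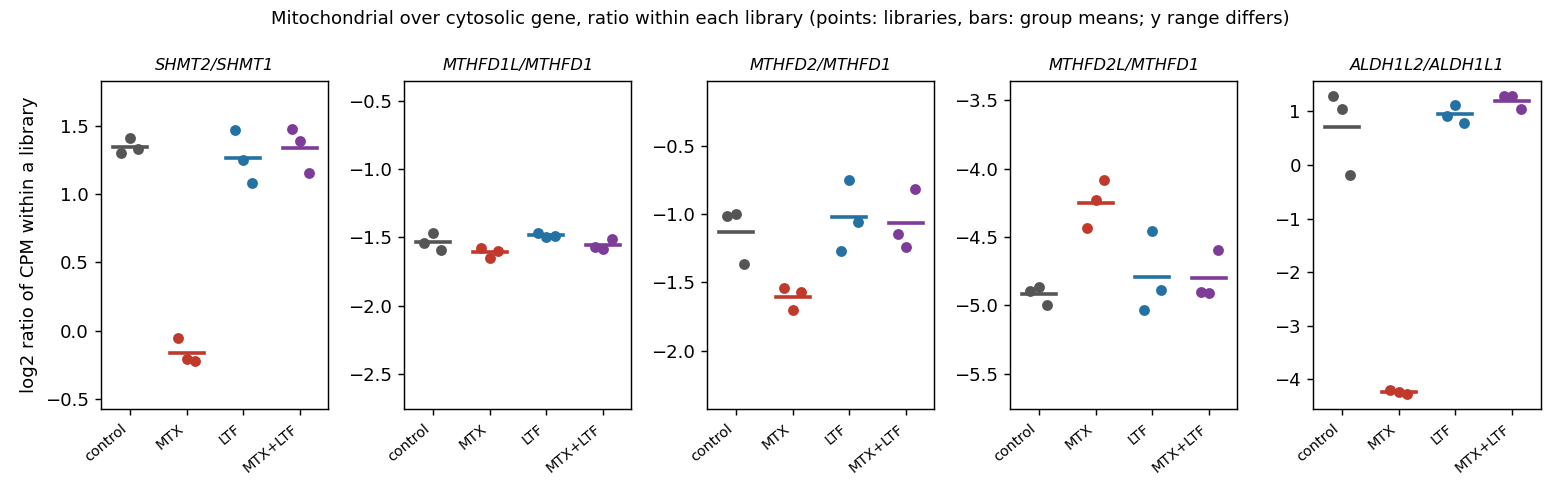
Log2 ratio of the mitochondrial to the cytosolic gene within each library for 5 pairs (MTX, methotrexate; LTF, lactoferrin; points, libraries; bars, group means; y range differing by panel). Methotrexate points stand apart from control in 4 panels and overlap with it for MTHFD1L over MTHFD1, while lactoferrin and combined points overlap with control in all 5.

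Lactoferrin alone gave no call among the 9 genes. Against control, edgeR called 0 members beside 0% of all genes, and 0 members had an unadjusted p under 0.05, beside 3.75% of all genes. Log2 differences ran from -0.16 for SHMT2 to 0.38 for MTHFS, and the libraries overlapped for every gene, while 10.1% of all genes did not overlap. The 95% intervals were -0.28 to 0.11 for SHMT1, -0.34 to 0.04 for MTHFD1, -0.42 to 0.10 for SHMT2, -0.32 to 0.22 for MTHFD2 and -0.30 to 0.10 for MTHFD1L. They were wider for the 3 genes of lowest CPM, at -0.52 to 0.68 for ALDH1L1, -0.46 to 0.93 for ALDH1L2 and -0.84 to 1.60 for MTHFS.

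Methotrexate given together with lactoferrin also gave no call against control. edgeR called 0 members beside 0.0299% of all genes (5 genes), with 0 members and 3.53% of all genes at an unadjusted p under 0.05. The genes that differed most with methotrexate alone stood here at 0.03 ± 0.28 (ALDH1L1), -0.10 ± 0.09 (SHMT1) and 0.40 ± 0.32 (ALDH1L2) on the log2 scale, each with an edgeR adjusted p = 1. Their 95% intervals were -0.56 to 0.62, -0.30 to 0.09 and -0.27 to 1.08. MTHFD2 was at 0.02 (-0.25 to 0.29) and MTHFD2L at 0.08 (-0.27 to 0.43), MTHFD1 at -0.05 (-0.24 to 0.14), MTHFD1L at -0.07 (-0.27 to 0.13), SHMT2 at -0.10 (-0.36 to 0.16) and MTHFS at 0.06 (-1.17 to 1.30). For all 9 the libraries overlapped, beside 7.84% of all genes that did not.

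The addition of methotrexate to lactoferrin was read from the combined group against lactoferrin. Again 0 members were called by edgeR, beside 0.0179% of all genes (3 genes), and 0 members had an unadjusted p under 0.05, beside 3.37% of all genes. SHMT1 stood at -0.02 with a 95% interval of -0.22 to 0.18, SHMT2 at 0.06 (-0.20 to 0.32) and MTHFD1 at 0.10 (-0.09 to 0.29). ALDH1L1 stood at -0.05 (-0.65 to 0.55). The libraries overlapped for each of the 9 genes, while 6.89% of all genes did not overlap. A single ratio separated these groups, MTHFD1L over MTHFD1, at 0.337, 0.333 and 0.351 with both agents and 0.362, 0.354 and 0.357 with lactoferrin (exact permutation p = 0.1, n = 3, the smallest possible, and 0.278 after adjustment over 25 ratio tests). A fit of the 9 libraries without the methotrexate group tested 15143 genes and called 0 of them in each of these 3 comparisons, and DESeq2 called 0%, 0.109% and 0.0213% of the genes it tested (0, 15 and 7 genes) with no member among them.

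The combined group was set against methotrexate to ask what lactoferrin adds to the drug. MTHFD2 was higher in the combined group and ALDH1L1, SHMT1, ALDH1L2 and MTHFD2L were lower, so 1 of 9 was called higher and 4 lower, beside 28.8% and 34.4% of all genes (63.2% in either direction). The log2 differences were -9.16 ± 0.21 for ALDH1L1, -3.68 ± 0.27 for ALDH1L2, -1.53 ± 0.09 for SHMT1, -0.64 ± 0.16 for MTHFD2L (edgeR adjusted p = 0.00223) and 0.47 ± 0.13 for MTHFD2 (edgeR adjusted p = 0.00445). This comparison and the one of methotrexate with control share the methotrexate libraries, whose markers of other cell types are given above. Under epithelial scaling 0 members were higher and 8 lower, and MTHFD2 turned to -0.49 (adjusted p = 0.00758). Of all genes 0.377% were higher and 76.7% lower under that scaling. At the submitters' cut-offs 0 members were higher and ALDH1L1, SHMT1 and ALDH1L2 were lower, beside 5.4% and 20.9% of all genes.

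The interaction, the methotrexate difference with lactoferrin present minus that without it, was called for the same 5 genes, 1 higher (MTHFD2) and 4 lower, beside 46.7% of all genes (20.6% higher and 26.1% lower). It was -9.24 ± 0.40 for ALDH1L1 (edgeR adjusted p = 4.20e-11), -3.92 ± 0.42 for ALDH1L2 (2.00e-06) and -1.44 ± 0.13 for SHMT1 (2.79e-07). MTHFD2 (0.52 ± 0.18, adjusted p = 0.0271) and MTHFD2L (-0.62 ± 0.23, adjusted p = 0.0357) passed narrowly. MTHFD2 missed the threshold in 5 of 12 fits that left out a library, with adjusted p up to 0.0781, and MTHFD2L in 7 of 12, with adjusted p up to 0.111. MTHFD2 was lost without control 1, methotrexate 2, lactoferrin 1, lactoferrin 3 or combined 3. MTHFD2L was lost without control 2, control 3, methotrexate 2, methotrexate 3, lactoferrin 2, combined 1 or combined 2. With a term for the replicate number MTHFD2L was at -0.62 with an adjusted p of 0.0530. Under epithelial scaling 0 members were higher and 7 lower, beside 0.173% and 67.8% of all genes. The submitters' cut-offs left 0 higher and 3 lower, beside 4.27% and 15.4% of all genes.

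Genes with overlapping or near-identical sequence limit what some of these counts mean, since the labels do not say whether reads were assigned by strand. MTHFS overlaps the readthrough gene ST20-MTHFS (hg19 chromosome 15, 80137537 to 80216096, minus strand) over much of its length, and ST20-MTHFS had 0 counts in all 12 libraries. In GENCODE v29 transcripts, 31.3% of the 50-base words of MTHFS also occur in ST20-MTHFS, so MTHFS counts are uncertain. For MTHFD2 30.5% of the words are shared, 24.8% with SLC4A5 on the opposite strand. MTHFD1 shares 11.1% with other genes, SHMT2 5.67%, SHMT1 4.6%, ALDH1L1 2.4%, ALDH1L2 1.54%, MTHFD2L 1.28% and MTHFD1L 0.174%. ALDH1L1-AS2, which overlaps ALDH1L1 on the other strand, had 30, 48 and 36 counts with methotrexate, far fewer than ALDH1L1 itself.

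The genes whose pattern over the 12 libraries was most like each of the 5 called members were found among 11829 genes, by the root mean square distance of log2 CPM after centring each gene. For ALDH1L1 they were FBN1 (0.413), PDK4 (0.447) and CAV1 (0.466). For ALDH1L2 they were SLC22A3 (0.264), DNAJB4 (0.322) and SEMA3C (0.347). SHMT1 was nearest to LETM1 (0.0601), TUBB6 (0.0815) and TMEM59 (0.0847). MTHFD2 was nearest to C11orf57 (0.0630), SKIV2L2 (0.0631) and PHF14 (0.0640), and MTHFD2L to FEZ2 (0.0647), DLD (0.0705) and PPP2CB (0.0738). FBN1, which encodes fibrillin of the extracellular matrix, stood 8.88 higher with methotrexate than in control on the log2 scale, against 9.08 for ALDH1L1 by the same measure.

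The wider folate and one-carbon pathway was read from 7 lists of 40 genes, of which 36 were tested. The lists were chosen with earlier results of these data known, so their counts are a description. With methotrexate 11 rose and 15 fell, beside 35.4% and 29.1% of all tested genes (the background for the lists below too), with a median log2 difference of -0.21 beside 0.03 for all tested genes. Under epithelial scaling 25 rose and 0 fell, beside 78.7% and 0.191% of all genes, and the median was 0.81 beside 1.04. Of the 8 genes for folate reduction, thymidylate synthesis and the methyl branch, 2 rose and 2 fell. TYMS, thymidylate synthase, went from 46.0 ± 2.78 to 22.0 ± 0.987 CPM, a fall of 1.06 on the log2 scale (-1.06 ± 0.09). Under epithelial scaling TYMS was not called, at -0.05.

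ATIC, which closes the purine ring, fell by 0.92 (-0.92 ± 0.10), and GART, the other folate-dependent purine enzyme, stood at 0.05 ± 0.09 without a call. In the glycine cleavage system 1 of 4 rose (DLD, the shared lipoamide dehydrogenase, 0.74 ± 0.12) and 1 fell (GLDC, the glycine decarboxylase, -1.01 ± 0.10). For serine synthesis PSAT1, the aminotransferase, rose by 2.09 ± 0.12 while PSPH (-0.75 ± 0.09) and PHGDH (-0.78 ± 0.10) fell. Under epithelial scaling all 3 of these serine genes were higher, and ATIC and GLDC were not called (0.09 and 0.02).

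Among 6 tested genes of choline to sarcosine oxidation 2 rose and 3 fell. DMGDH, dimethylglycine dehydrogenase, rose by 6.73 ± 0.33. BHMT2, a betaine-homocysteine methyltransferase paralog, stood at 59.9 ± 6.13 CPM with methotrexate and near 0 in control. A gene so low outside the methotrexate libraries can pass the low-count filter through them, so its rise adds no support. Among 6 tested genes of folate transport and polyglutamation 2 rose and 3 fell, including SLC46A1, the proton-coupled folate transporter (-0.89 ± 0.10), and GGH, gamma-glutamyl hydrolase (-0.84 ± 0.09), neither of which was called under epithelial scaling (0.12 and 0.18). On the methionine cycle list 3 of 7 rose and 3 fell. AHCYL1, a gene named for its likeness to AHCY, stood at 0.89 ± 0.08, and its part in the cycle was not tested. AHCY, which clears S-adenosylhomocysteine, stood at -0.92 ± 0.11 (0.09 and not called under epithelial scaling).

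A separate list held 10 genes of the ATF4 branch of the amino acid response, a branch known to control MTHFD2 and ALDH1L2. Of these 9 rose and 0 fell with methotrexate, beside 35.4% and 29.1% of all tested genes, with a median of 0.97. Under epithelial scaling all 10 rose, beside 78.7% of all genes. This list was chosen with earlier results of these data known, so its counts are a description and not a test. SESN2, a stress-induced inhibitor of growth signalling, rose by 2.50 ± 0.16, and VLDLR, a lipoprotein receptor, by 5.67 ± 0.28. Under TMM MTHFD2 went the other way from these 9 genes. Whether the branch was active, or had a part in the levels of the one-carbon genes, was not tested.

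With both agents against control, with lactoferrin against control and with both agents against lactoferrin, 0 genes of these 8 lists were called. For both agents against control TYMS stood at 0.09 ± 0.09, ATIC at -0.09 ± 0.09, GART at -0.03 ± 0.09, DLD at 0.13 ± 0.12 and GCSH at 0.28 ± 0.31 on the log2 scale. PSPH stood at -0.08 ± 0.09, PHGDH at -0.07 ± 0.10, ALDH7A1 at -0.08 ± 0.08, SLC19A1 (the reduced folate carrier) at -0.20 ± 0.17, SLC46A1 at 0.08 ± 0.10, AHCY at -0.13 ± 0.11 and MAT1A at -0.10 ± 0.14. CEBPB stood at 0.16 ± 0.16 and VLDLR at 0.87 ± 0.37 (edgeR adjusted p = 1), while BHMT2 had no counts in the combined libraries. The median of the 36 pathway genes was -0.01 for both agents against control, beside 0.01 for all tested genes.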

How the data were processed

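RNA of 12 libraries was measured as integer counts per gene, deposited as 1 table with a column per library. Per the submitters' processing notes, CASAVA, STAR and DESeq2 were used with build hg19. Versions and roles of these tools, the annotation, the counting program and strandedness were all not given in the sources used here. Gene symbols, lengths and coordinates came from the table. Library totals of 18714054 to 60591667 counts set the precision. Floors cover counting error only, while the 95% intervals hold the spread between libraries.

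The test was run with edgeR 4.0.16 (R 4.3.3): filterByExpr, TMM, 1 mean per group over all 12 libraries, the quasi-likelihood F test on 6 contrasts, and Benjamini-Hochberg adjustment over 16733 genes, called at 0.05. The biological coefficient of variation was 12.9%. The procedure was first tested on simulated data with few changed genes, up or down at random. Those data held no broad shift between groups, so they could not test the choice of scaling. CPM are after TMM scaling, and 95% intervals use the moderated degrees of freedom (median 15.6). Mitochondrial to cytosolic ratios used CPM plus 0.1 and two-sided exact permutation tests of 3 against 3 libraries.

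The rule for named genes took all 9 members, the 2 genes of lowest p per pathway list in methotrexate against control and in both agents against control, and the 3 genes nearest to each called member in pattern (average log2 CPM at least 1, by root mean square distance). PHGDH with methotrexate was added after its value was seen, to complete its list. Some genes that the rule takes are not reported here by name but remain in all fits and list counts. The members and lists were chosen with earlier results of these data known. Alternatives were relative log expression factors, epithelial scaling, no filter, DESeq2 1.42.0, a replicate term, the compared groups alone, the fit without the methotrexate libraries, each library left out, the submitters' cut-offs and a ratio constant of 1 CPM. No library was left out of the main comparisons.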

Additional observations from a re-analysis of the deposited data

Results flagged for a closer look

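For 5 genes the methotrexate difference itself differed with and without lactoferrin, by edgeR's interaction test over all 12 libraries. The log2 interaction was -9.24 for ALDH1L1 (adjusted p = 4.20e-11), -3.92 for ALDH1L2 (adjusted p = 2.00e-06), -1.44 for SHMT1 (adjusted p = 2.79e-07), -0.62 for MTHFD2L (adjusted p = 0.0357) and 0.52 for MTHFD2 (adjusted p = 0.0271). The last 2 were less stable. MTHFD2L was lost in 7 of 12 fits that left out a library, without the filter (adjusted p = 0.0795) and with the replicate block (adjusted p = 0.0530). MTHFD2 was lost in 5 of 12 and stood at -0.46 under epithelial scaling (adjusted p = 0.0677). Of all tested genes 46.7% were called in the same contrast. In each of the 5 the methotrexate libraries stood apart while control, lactoferrin and combined libraries overlapped, and the same methotrexate libraries carried 18780.5 to 19626.6 CPM of adipocyte markers, whose part in these values was not tested.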

How the results depend on the processing

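Epithelial scaling moved the counts of members most: 8 higher and 0 lower for methotrexate against control, 0 higher and 8 lower for both agents against methotrexate, and 0 higher and 7 lower for the interaction. It turned the sign of SHMT2 (0.93), MTHFD2 (0.56) and MTHFD1L (0.97) for methotrexate against control, of MTHFD2 (-0.49) for both agents against methotrexate, and of MTHFD1 (-0.92), SHMT2 (-0.86), MTHFD2 (-0.46) and MTHFD1L (-0.91) for the interaction. At the submitters' cut-offs 0 members were lower for methotrexate against control, 0 higher for both agents against methotrexate and 0 higher for the interaction. Without each library in turn the interaction gave 0 to 1 members higher and 3 to 4 lower, while the other 5 comparisons kept their counts. Without the filter the MTHFD2L interaction was -0.65 (adjusted p = 0.0795). Of the single-gene values under the alternatives, 1012 kept direction and side of the threshold, 20 lost and 4 gained a call without turning, and 8 turned. Among those that turned, SHMT2 and MTHFD1L for methotrexate against control also gained a call. So did MTHFD1, SHMT2 and MTHFD1L for the interaction, while MTHFD2 lost its call there. Differences called in neither fit were counted as kept, and of 755 such values 50 changed sign. These were at most 0.39 in size in the main fit. Some were larger after turning, as for the MTHFS interaction (-0.96 under epithelial scaling and -0.83 without control 1). Of 175 ratio differences 16 changed sign, the largest being 0.23 in the main fit.

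Replicate numbers recur in each group, but the labels do not say what they share. Of 18 same-numbered pairs of libraries 2 correlated above 0.1 (r from -0.22 to 0.12), and 3 of 12 libraries correlated best with their own number. With the replicate block the MTHFD2L interaction was -0.62 (adjusted p = 0.0530), no longer called, and no other call among the 9 genes changed. MTHFS had 7 to 55 counts per library and the largest SE of the 9 genes, while ALDH1L1, at 12 to 33 counts outside the methotrexate group, had a smaller one (0.28 against 0.57 for lactoferrin against control).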
